A study of Parachlorella kessleri with 6 samples.

Results

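Autophagy is the process by which a cell encloses part of its cytoplasm in a double membrane, the autophagosome, and delivers it to the vacuole to be broken down and reused. In yeast, where most of the genes (ATG genes) were named, a kinase complex starts the process, a lipid kinase complex marks the membrane with phosphatidylinositol 3-phosphate, ATG9 and ATG2 supply lipid, and a pair of ubiquitin-like pathways attaches ATG8 to the growing membrane. In green algae autophagy is known to respond to nutrient, oxidative and other stresses. The autophagy genes of Parachlorella kessleri, a unicellular green alga, were taken as the rows of the deposited transcript table whose best protein match is named as an autophagy protein or beclin, or whose predicted peptide carries the Pfam domain Atg8, APG5, APG6, APG9 or ATG13, leaving out rows with a protein kinase domain. This gave 12 of 22972 assembled genes, and 0 rows were lost to the kinase exclusion.

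The groups were 3 libraries of cells kept under salt stress and 3 of cells kept under control conditions, each after 2 days. The sources used here do not give the salt concentration, the strain or the culture medium. Nor do they say that replicates came from separate cultures, and the spread behind each p-value may therefore be technical. Library totals were 19849594 to 21654407 counts in salt and 16460455 to 24065705 in control. Levels are CPM, counts scaled to the library size with TMM factors, where 1 count is worth 0.0436 to 0.0629 CPM, and a level is a share of the library's RNA, so that fewer transcripts in each cell and fewer cells with the transcript cannot be told apart. Salt replicate 1 and control replicate 1 deviate together from the other libraries across all genes, so changes are also given for the replicate 1 pair and for replicates 2 and 3.

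The 12 genes cover most steps of the pathway, although ATG8, the protein that marks the membrane, is not among them. The rows hold ATG1 (TRINITY_DN5320_c0_g3) and ATG13 (TRINITY_DN5729_c1_g16) of the starting kinase complex. The membrane supply genes are ATG9 (TRINITY_DN3897_c0_g1), ATG2 (TRINITY_DN5030_c3_g3), ATG18a (TRINITY_DN5913_c0_g3) and ATG18b (TRINITY_DN5593_c0_g2). The nucleation genes are the beclin ATG6 (TRINITY_DN4269_c1_g1) and a row named after the mouse beclin partner AMBRA1 (TRINITY_DN5043_c0_g2). The conjugation genes are ATG7 (TRINITY_DN5059_c0_g2), ATG5 (TRINITY_DN4721_c1_g3) and a pair of ATG3 rows, called here ATG3-1 (TRINITY_DN4742_c0_g1) and ATG3-2 (TRINITY_DN5736_c2_g1). The Atg8 domain, the domain of the ATG4 protease (Peptidase_C54) and the APG12 domain were each listed in 0 rows. Each name is that of the best protein match, except that 1 row had no Swiss-Prot match and is named from its other annotation. A name says nothing certain about the role of the gene in Parachlorella.

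The best match in the NR database was a Chlorella protein for 9 of the 12 rows and a Coccomyxa protein, from another green alga, for the other 3. In the deposited table, which counts residues along each predicted peptide, the APG5 domain of ATG5 spans residues 88 to 144, the APG6 domain of the beclin 121 to 360, the ATG13 domain 22 to 231 and the APG9 domain of ATG9 1 to 313. ATG7 carries the ThiF domain of ubiquitin-activating enzymes at residues 98 to 394, and ATG3-1 the active-site domain of the conjugating enzyme at 48 to 110. The AMBRA1 row carries only a single WD40 repeat, at 108 to 147, so that its place among autophagy genes rests on the name of its match. The row named ATG1 has no listed domain, as have ATG2, ATG18a, ATG18b and ATG3-2, which makes 5 of the 12. The ATG9 row holds a second predicted peptide with ankyrin repeats at residues 204 to 382, and its counts cannot be divided between the 2 peptides.

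All 12 rows passed the filter on low counts. Per transcript length, in the FPKM values that the authors deposited, the AMBRA1 row had 77.8 ± 6.96 FPKM in salt, in rank 2 of the 12, and 131.9 ± 16.7 FPKM in control, in rank 1 (mean ± SD, n = 3 each). ATG3-2 was the highest in salt, at 107 ± 6.77 FPKM, against 77.4 ± 23.2 FPKM in control. That value rests on a very short row. The effective length that its counts and FPKM imply was 123 to 147 bases in salt and 100 to 139 in control. ATG1, named after the starting kinase, was in rank 3 in both groups, with 67.5 ± 5.67 FPKM in salt and 61.6 ± 2.52 FPKM in control. In salt its libraries overlapped those of the AMBRA1 row and lay above ATG18a in every library, which had 48.4 ± 1.96 FPKM. The lowest levels were those of ATG6, with 11.5 ± 0.479 FPKM in salt and 12.9 ± 0.0926 FPKM in control, and ATG18b, with 10.7 ± 1.97 FPKM in salt and 16.015 ± 5.05 FPKM in control; these overlapped each other in both groups. ATG7 stood in rank 10 in salt, above ATG6 and below ATG2 in every library, and in rank 7 in control, where its libraries overlapped those of ATG13 and ATG2.

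**Figure D1:**
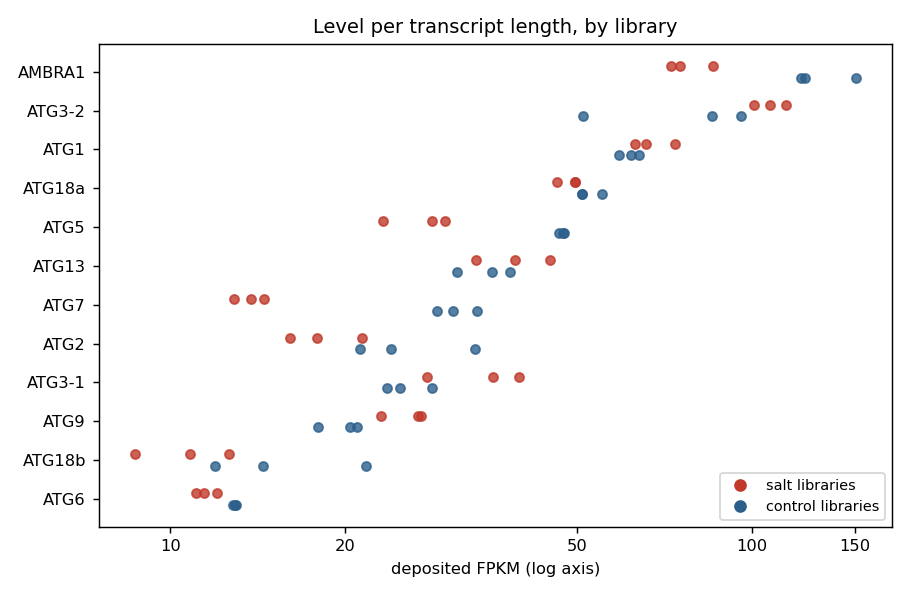
Deposited FPKM of the 12 autophagy genes (log axis), with 1 point per library, salt above control within each gene, and genes ordered by their control mean. The control points of ATG7, ATG5 and the AMBRA1 row lie to the right of all their salt points, and ATG6 and ATG18b have the lowest levels.

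Under salt, 3 of the 12 genes fell clearly: ATG7 to 0.432-fold of its control level, ATG5 to 0.539-fold and the AMBRA1 row to 0.540-fold. In all, 4 genes fell, 1 rose and 7 were not called by edgeR's quasi-likelihood test at a Benjamini-Hochberg adjusted p under 0.05 over the 11438 genes tested. That is 5 of 12 called (41.7%), where 57.8% of all tested genes were called (28.7% lowered and 29.1% raised), so the share of autophagy genes called did not exceed the background. With the replicate number as a block, 3 autophagy genes fell and 0 rose, as the calls on ATG9 and ATG2 were lost. Over all genes 3516 rose and 3330 fell with that block. In the fit as reported, the median log2 change was -0.12 over the 12 genes and 0.01 over all tested genes. Only ATG7 changed by at least 2-fold, while 33.5% of all tested genes were called and did so. The salt and control libraries did not overlap for 7 of the 12 genes (6 lower in salt and 1 higher), as for 66.7% of all tested genes (32.6% lower and 34.1% higher). Scaled by library totals without TMM, which moves the median of all genes by 0.185 on the log2 scale, 2 autophagy genes rose and 3 fell, and over all genes 4064 rose and 2658 fell, against 3331 and 3285 with TMM.

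**Figure D2:**
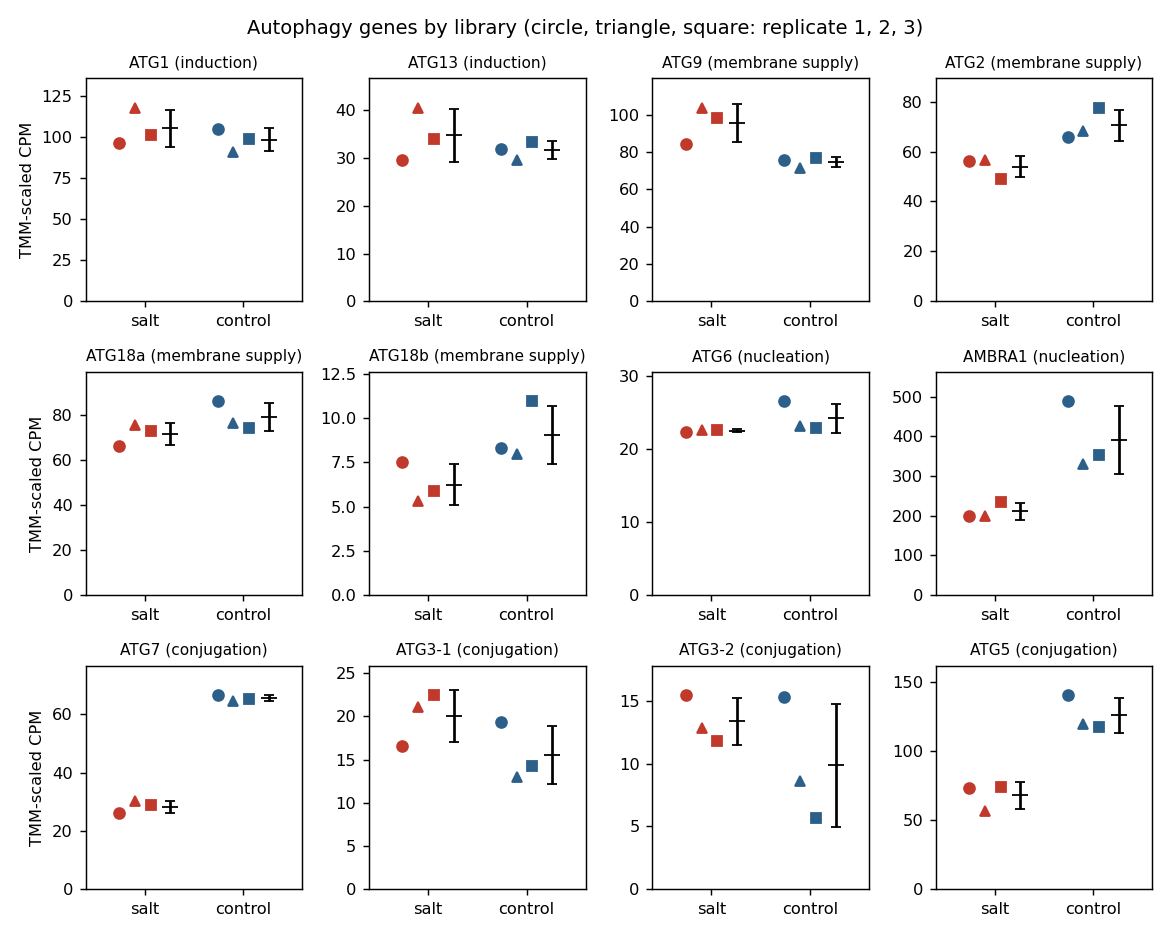
TMM-scaled CPM of each autophagy gene in each library, salt left of control, with the mean and SD of the 3 libraries beside the points and each vertical axis starting at 0. ATG7, ATG5 and the AMBRA1 row have salt points well below all control points, whereas ATG1 and ATG13 have overlapping groups.

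The genes named after those that start autophagy were not called as rows. ATG1 is named after the kinase that receives signals from the nutrient-sensing TOR kinase. The row has no listed kinase domain, so its place as that kinase rests on its annotated name. It had 96.2, 118 and 101 CPM in salt replicates 1 to 3, against 105, 90.9 and 98.6 CPM in control replicates 1 to 3. The groups overlapped, and the log2 change was 0.10, with a 95% interval of -0.19 to 0.38. ATG13, the regulatory subunit that binds ATG1, had 29.6, 40.6 and 34.1 CPM in salt, against 31.9, 29.6 and 33.4 CPM in control. Its log2 change was 0.13 (95% interval -0.22 to 0.49), so a rise of 1.40-fold or a fall to 0.861-fold remains within its interval. Both genes were slightly lower in salt within the replicate 1 pair (-0.12 and -0.11) and slightly higher within replicates 2 and 3 (0.21 and 0.24). The ATG13 row holds 8.3% of the counts of its Trinity cluster, whose 16 other rows include 7 with other names. Summed over that cluster the log2 change was 0.71 and was called (edgeR adjusted p = 0.00295).

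Of the membrane supply genes, ATG9 rose and ATG2 fell, both by less than 1.5-fold. ATG9, the membrane protein whose vesicles seed the autophagosome, had 84.1, 104 and 98.3 CPM in salt, against 75.4, 71.6 and 77.0 CPM in control. Every salt library was above every control library, with a log2 change of 0.35 (SE 0.12, edgeR adjusted p = 0.0343). ATG2, a lipid-transfer protein that bridges the endoplasmic reticulum and the growing membrane, had 56.3, 56.5 and 49.0 CPM in salt, against 65.6, 68.2 and 77.6 CPM in control. Every salt library was below every control library, with a log2 change of -0.39 (SE 0.12, edgeR adjusted p = 0.0294).

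These calls on ATG9 and ATG2 are marginal. With the replicate number as a block the adjusted p was 0.0565 for ATG9 and 0.0566 for ATG2. With no filter on low counts it was 0.0594 for ATG9 and 0.105 for ATG2, and with limma on the FPKM values 0.0614 for ATG9 and 0.0907 for ATG2. DESeq2's Wald test gave 0.0618 for ATG9. For ATG9 the call was lost without salt replicate 2 (adjusted p = 0.102), salt replicate 3 (0.0989), control replicate 2 (0.120) or control replicate 3 (0.0828). For ATG2 it was lost without salt replicate 1 (0.05004), salt replicate 2 (0.0637), salt replicate 3 (0.120), control replicate 2 (0.0641) or control replicate 3 (0.109), and with library totals in place of TMM (0.241). Summed over its Trinity cluster, of whose counts the ATG2 row holds 38.0%, the log2 change was -0.63 (adjusted p = 0.00228). The effective length of the ATG2 row was 2688 to 3459 bases in salt and 2248 to 2797 in control, a log2 ratio of 0.29. Over 11404 tested genes with a value the median ratio was 0.155, and 95.3% of the ratios were positive. Nearly all genes thus share an offset in this direction. Whether the ATG2 ratio beyond this offset has a part in the change of ATG2 was not tested.

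The ATG18 proteins, propellers that bind phosphatidylinositol 3-phosphate and work with ATG2, were not called. ATG18a had 66.2, 75.4 and 73.1 CPM in salt, against 86.2, 76.6 and 74.5 CPM in control, with overlapping groups. Its log2 change was -0.14 (95% interval -0.41 to 0.12) and turned to 0.05 with library totals in place of TMM. ATG18b, which has the lowest mean CPM of the 12 genes, had 7.54, 5.31 and 5.88 CPM in salt, against 8.30, 7.95 and 10.9 CPM in control. Its salt libraries were all below its control libraries, but the 95% interval of its log2 change reached from -1.09 to 0.02 (edgeR adjusted p = 0.0882). Within replicates 2 and 3 alone the log2 change was -0.74 and was called (adjusted p = 0.0278).

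Nucleation divided into a beclin that was not called and an AMBRA1 row that fell. ATG6, the beclin that scaffolds the lipid kinase complex, had 22.3, 22.6 and 22.6 CPM in salt, against 26.5, 23.1 and 22.9 CPM in control. The salt libraries were all below the control libraries, by a narrow margin. The log2 change was -0.10 (95% interval -0.39 to 0.19), so that a change beyond 0.761-fold or 1.14-fold lies outside its interval; with library totals in place of TMM it was 0.09. The AMBRA1 row, named after a WD40 protein that binds beclin in mouse, had 199, 198 and 235 CPM in salt, against 488, 330 and 352 CPM in control. Every salt library lay far below every control library, and control replicate 1 stood above the other controls. The log2 change was -0.89 (SE 0.18, edgeR adjusted p = 0.00487). The replicate 1 pair gave -1.29 and replicates 2 and 3 gave -0.66.

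In conjugation, ATG7 and ATG5 fell and the ATG3 rows were not called. ATG7 is the activating enzyme shared by ATG8 and ATG12. It had 26.0, 30.1 and 28.7 CPM in salt, against 66.7, 64.6 and 65.3 CPM in control. Every salt library was below every control library, and the spread within each group was far smaller than the gap between them (28.3 ± 2.07 CPM in salt and 65.5 ± 1.03 CPM in control, mean ± SD, n = 3 each). The log2 change was -1.21 (SE 0.11, edgeR adjusted p = 0.000171), with -1.36 in the replicate 1 pair and -1.14 in replicates 2 and 3. ATG5, which ATG12 is attached to so that the pair can direct ATG8 to the membrane, had 73.0, 56.4 and 74.1 CPM in salt, against 141, 120 and 117 CPM in control. All its salt libraries were below all its controls, with a log2 change of -0.89 (SE 0.15, edgeR adjusted p = 0.00199), or -0.94 and -0.86 in the replicate 1 pair and in replicates 2 and 3.

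ATG3 is the conjugating enzyme that passes ATG8 from ATG7 to its lipid. ATG3-1 had 16.6, 21.1 and 22.5 CPM in salt, against 19.4, 12.9 and 14.2 CPM in control, with a log2 change of 0.37 (95% interval -0.12 to 0.86). ATG3-2 had 15.5, 12.9 and 11.8 CPM in salt, against 15.3, 8.65 and 5.66 CPM in control, with a log2 change of 0.44 (95% interval -0.40 to 1.28). In both rows control replicate 1 stood above the other controls and made the groups overlap. Without it the log2 change was 0.57 for ATG3-1 (edgeR adjusted p = 0.0268) and 0.91 for ATG3-2 (adjusted p = 0.0169), both called. Both were also called within replicates 2 and 3 (0.69 and 0.79), and ATG3-1 with library totals in place of TMM (0.57, adjusted p = 0.0439). Both rows have the same best match and may be pieces of 1 gene, which was not tested; summed as 1 gene they gave a log2 change of 0.40 (SE 0.22, adjusted p = 0.164).

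**Figure D3:**
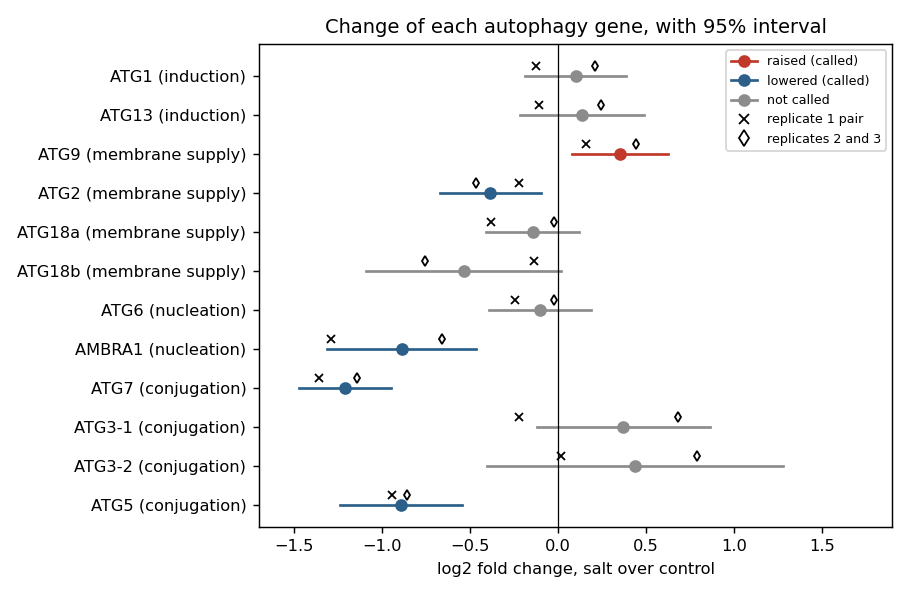
Log2 change of salt over control for each autophagy gene with its 95% interval from the edgeR fit (positive: higher in salt), coloured by call. Marks above each bar give the change in the replicate 1 pair (cross) and in replicates 2 and 3 (diamond). For ATG7, ATG5 and the AMBRA1 row both partial values are below -0.6, while for ATG1, ATG13 and ATG3-1 they lie on opposite sides of 0.

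The falls of ATG7, ATG5 and the AMBRA1 row were called under all 14 other ways of processing that kept each row as a gene. The log2 change ranged from -1.24 to -1.02 for ATG7, from -0.95 to -0.70 for ATG5 and from -1.0015 to -0.65 for the AMBRA1 row, with adjusted p-values of at most 0.00182, 0.00801 and 0.0270. ATG9 was called under 6 of 14 and ATG2 under 5 of 14, always with the same sign. ATG1 and ATG13 were called under 0 of these 14, with adjusted p-values from 0.0861 to 0.892 and from 0.123 to 0.908, although each stayed above 0. The number of autophagy genes called was 3 with the replicate block and 3 without salt replicate 2, salt replicate 3, control replicate 2 or control replicate 3. It was 7 without control replicate 1 and 8 within replicates 2 and 3 alone. The number of all genes called was 6616 of 11438 as reported. It moved in the same way when libraries were left out, but not with the replicate block. It was 7538 of 11751 tested without control replicate 1 and 8029 of 11624 within replicates 2 and 3 alone. Without each of the other libraries just named it was 5518 to 5788. With the replicate block it rose to 6846 of 11438, while the number of autophagy genes called fell to 3.

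**Figure D4:**
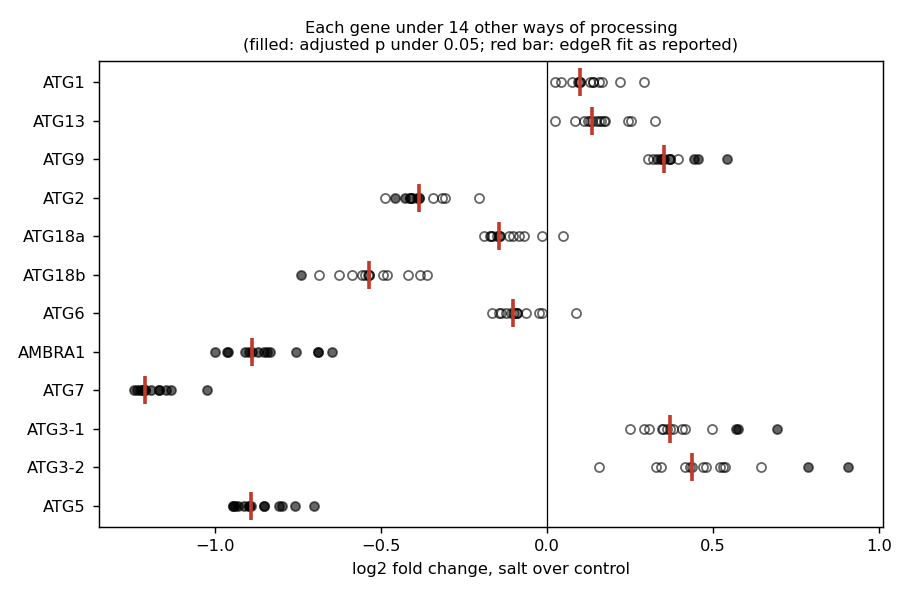
Log2 change of salt over control for each autophagy gene under 14 other ways of processing (points, filled where the adjusted p is under 0.05) and as reported (red bar). The points of ATG7, ATG5 and the AMBRA1 row are filled throughout, and those of ATG9 and ATG2 are filled in part.

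In the authors' deposited table, ATG7 is the only autophagy gene marked as significant (log2 change -1.17, FDR 1.08e-07). ATG5 (-0.80, FDR 0.000241) and the AMBRA1 row (-0.78, FDR 0.00156) have a low FDR in the authors' deposited table but are not marked, and the smallest log2 change marked there is 1.0 in size. ATG9 has an FDR of 0.115 and ATG2 of 0.135 in the authors' deposited table.

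Summed over the 12 genes, autophagy transcripts made up 693 to 756 CPM in the salt libraries and 904.5 to 1129 CPM in the control libraries. Without the AMBRA1 row alone the sums were 493.5, 542 and 521.5 CPM in salt, against 641, 574 and 597 CPM in control, and the groups did not overlap. Without ATG7 and ATG5 as well, left out after their values were seen, the other 9 summed to 394.5, 456 and 419 CPM in salt. Against these stood 433.5, 390 and 415 CPM in control, and the groups overlapped. Leaving out genes because they fell narrows the gap by construction. The Trinity identifiers place most of these genes in clusters with rows of other names, and whether reads were divided between such rows was not tested. ATG7 held 99.7% of the counts of its cluster, ATG9 99.9%, and the ATG3 rows stood alone. ATG5 held 20.3%, in a cluster with a pair of proteasome subunits, and AMBRA1 48.4%, with ammonium transporters that have their own names. Summed over the cluster, the log2 change was 0.14 for ATG5 and 0.33 for AMBRA1, opposite in sign to the rows themselves, while the cluster of ATG7 is nearly the row itself.

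Genes that work beside the autophagy genes were taken from lists of words in the descriptions. Of 29 rows in these lists 23 were tested, and 5 rose, 9 fell and 9 were not called, which is 60.9% called where 57.8% of all tested genes were. The median log2 change was -0.16, beside 0.01 over all tested genes. VPS34 (TRINITY_DN3878_c0_g1), the lipid kinase that beclin scaffolds, had 45.7, 61.8 and 53.9 CPM in salt, against 87.6, 97.2 and 110 CPM in control. Every salt library was below every control library, with a log2 change of -0.87 (SE 0.15, edgeR adjusted p = 0.00256). ULK4 (TRINITY_DN4608_c1_g3), a row with a kinase domain named after a relative of ATG1 in animals, rose by a log2 change of 0.64 (SE 0.16, adjusted p = 0.0134).

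Of 3 rows tied to the TOR kinase, which restrains autophagy in fed cells, 1 fell, 1 rose and 1 was not called. That is 66.7% called, where 57.8% of all tested genes were. TAP46 (TRINITY_DN4670_c0_g2), a phosphatase regulator that acts downstream of TOR in plants, had 6.76, 6.04 and 7.36 CPM in salt, against 26.8, 19.8 and 22.1 CPM in control. Its log2 change was -1.77 (SE 0.18, edgeR adjusted p = 0.000261). LST8 (TRINITY_DN5542_c1_g3), a subunit of the TOR complex, rose by a log2 change of 0.41 (SE 0.11, adjusted p = 0.0197). Its call was lost without salt replicate 1 (0.0523), control replicate 2 (0.0527) or control replicate 3 (0.0628), and on the FPKM values (0.302). RAPTOR (TRINITY_DN5017_c3_g3), the subunit that recruits substrates to TOR, had a log2 change of -0.18 (95% interval -0.43 to 0.07), or 0.01 with library totals in place of TMM.

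The list of vacuole tethering and membrane fusion was drawn by words and also holds fusion proteins of the Golgi and the secretory route. It is therefore wider than the step at which an autophagosome meets the vacuole. Of its 11 tested genes, 2 were raised, 7 lowered and 2 not called, with a median log2 change of -0.54. That is 81.8% called, where 57.8% of all tested genes were called (29.1% raised and 28.7% lowered) with a median of 0.01. GOS1 (TRINITY_DN3025_c0_g1), a SNARE (membrane fusion protein) of the Golgi that entered by its description, had the smallest p, with 10.03, 6.74 and 8.49 CPM in salt, against 65.9, 36.3 and 36.1 CPM in control. It fell by 2.45 on the log2 scale (SE 0.29, edgeR adjusted p = 0.0005). The gene of the list with the highest CPM averaged over the 6 libraries was alpha-SNAP2 (TRINITY_DN4409_c3_g2), which recycles SNAREs after fusion, although VAMP711 was above it in control (257 against 247 CPM). The alpha-SNAP2 row also lists DnaJ and zf-CSL domains beside its SNAP domain. Whether its counts belong to alpha-SNAP alone was not tested. Alpha-SNAP2 fell by 0.37 on the log2 scale (SE 0.13, adjusted p = 0.0424), a call that held under 6 of 14 other ways of processing. It was lost without salt replicate 1 (adjusted p = 0.0587), salt replicate 2 (0.136), salt replicate 3 (0.155), control replicate 2 (0.0775) or control replicate 3 (0.0583), with library totals in place of TMM (0.173), with no filter on low counts (0.153) and with DESeq2's Wald test (0.0568).

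The other called genes of fusion were chosen here after their values were seen. The rises were in YKT61 (TRINITY_DN4763_c1_g4), related to the SNARE Ykt6 that fuses autophagosomes with the vacuole in yeast (log2 change 0.98, SE 0.15), and in VACUOLELESS1 (TRINITY_DN5518_c0_g2), the VPS16 subunit of the tethering complex (0.74, SE 0.11). Another core subunit of that complex, VPS18 (TRINITY_DN4719_c0_g8), fell by 0.54 on the log2 scale (SE 0.14, edgeR adjusted p = 0.0134), and MON1 (TRINITY_DN5089_c1_g6), which helps to activate the small GTPase Rab7, fell by 0.56 (SE 0.15, adjusted p = 0.0181). VPS18 was no longer called without salt replicate 2 (0.0536) or salt replicate 3 (0.0637), and MON1 without salt replicate 1 (0.0589) or salt replicate 2 (0.0657), or with library totals in place of TMM (log2 change -0.36, adjusted p = 0.0731). The vacuolar SNARE VAMP711 (TRINITY_DN5099_c1_g6) fell by 0.90 (SE 0.14), VAMP721 (TRINITY_DN4872_c2_g1) of the secretory route by 0.94 (SE 0.14) and the Golgi Syntaxin-32 (TRINITY_DN3601_c0_g1) by 0.70 (SE 0.12), each with an adjusted p of at most 0.00243.

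Subunits of the proton pump that acidifies the vacuole had 1 gene raised and 6 not called of 7 tested, log2 changes between -0.16 and 0.30 and a median of -0.06. That is 14.3% called, where 57.8% of all tested genes were. Subunit c'' (TRINITY_DN5447_c5_g3) of the membrane sector had 95.6, 90.5 and 93.5 CPM in salt, against 77.9, 76.0 and 73.9 CPM in control. Its log2 change of 0.30 (SE 0.09, edgeR adjusted p = 0.0301) was not called with the replicate block (0.0581), with no filter on low counts (0.0829) or with DESeq2's Wald test (0.0746), nor when any library other than control replicate 1 was left out (0.0557 to 0.116). The subunit with the highest CPM averaged over the 6 libraries, a3 (TRINITY_DN5717_c0_g1), had 387, 390 and 374 CPM in salt, against 513, 338 and 357 CPM in control, with a log2 change of -0.07 (95% interval -0.50 to 0.35), which was 0.15 without control replicate 1. Per transcript length a3 was not the highest, with 157 FPKM in salt and 161 FPKM in control, below subunit A (TRINITY_DN5584_c2_g1) with 203 FPKM in salt and 192 FPKM in control and subunit B (TRINITY_DN3748_c0_g1) with 189 FPKM in salt and 200.1 FPKM in control. Of the list of receptors and ATG4, 0 rows were tested: its only row, named sequestosome-1, held 6 counts in all. These counts were all in control replicate 2, and the best NR match of the row was a Xenopus protein.

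**Figure D5:**
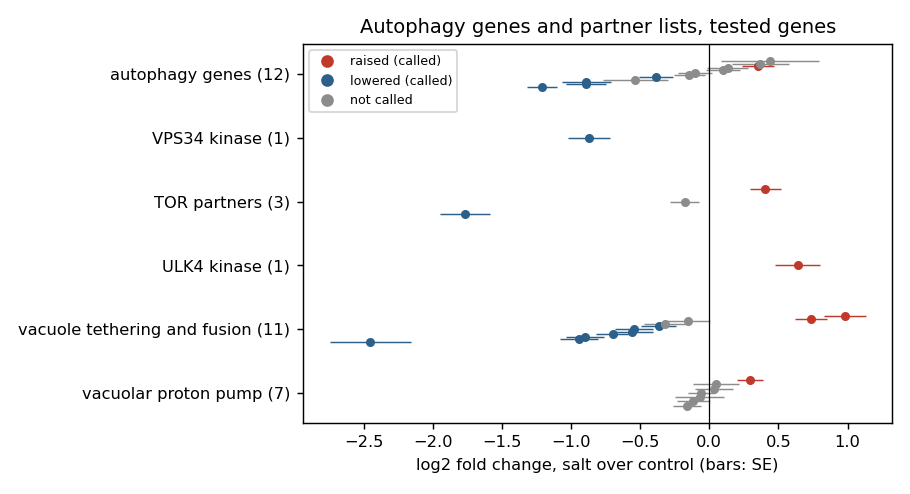
Log2 change of salt over control, with SE, for the autophagy genes and the tested genes of each partner list (number tested in brackets), coloured by call. Fusion genes spread from -2.45 to 0.98, and the proton pump subunits stay near 0.

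Other columns of the table tie a further 10 rows to autophagy that the rule did not take, and these were looked up after values had been seen. Of these, 8 were tested, with 1 raised and 2 lowered, which is 37.5% called where 57.8% of all tested genes were. TRINITY_DN4814_c2_g1, whose peptide carries the Atg14 domain (the beclin partner ATG14 and the related VPS38) at residues 5 to 271, had 85.2, 91.3 and 93.2 CPM in salt, against 34.6, 22.0 and 19.8 CPM in control. Every salt library was more than 2-fold above every control library, with a log2 change of 1.82 (SE 0.22, edgeR adjusted p = 0.000519), larger in size than that of any of the 12 genes. A second row with this domain, TRINITY_DN4281_c0_g1, had a log2 change of 0.08 (95% interval -0.36 to 0.51), which within replicates 2 and 3 was 0.34 and called (edgeR adjusted p = 0.0259). The only row named after ATG8 relatives, TRINITY_DN724_c0_g1, held 1 count, in control replicate 2. Its best NR match was PHD finger protein 23 of the animal Cricetulus griseus, and whether the row comes from the alga was not tested.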

How the data were processed

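TRIzol was used to extract RNA, per the labels' protocols, and the sources used here name no aligner or counting tool. The file that the authors deposited has read counts for each assembled gene as whole numbers and, per the file headers, FPKM values for each library, the authors' mean FPKM per group, a log2 fold change, and a p-value with FDR whose test is not named. Counts were tested with edgeR 4.0.16 in R 4.3.3, with TMM scaling, filterByExpr at a minimum of 10, a quasi-likelihood model with condition as its only term, and Benjamini-Hochberg adjusted p under 0.05 over 11438 genes. The SE is the size of the log2 change over the square root of F. The model was tested on simulated data. Effective length is the counts divided by the FPKM and library total. Libraries with the same number deviated together (correlation across genes 0.373, 0.161 and 0.220), which meets the criterion of 0.1 for pairing, from the data and not the labels. The labels state no block, so the replicate number was left out of the main model and used as an alternative. Alternatives were the replicate block, DESeq2 1.42.0 size factors and Wald test, library totals, other filters, leaving out libraries, replicates 2 and 3 alone, summed clusters and, added after the data were seen, limma 3.58.1 on log2(FPKM + 0.1) and summed ATG3 rows. All 12 genes are named, and in each partner list at least the gene with the highest mean CPM, which is not corrected for length, and that with the smallest p. The members and lists were chosen with earlier results of these data known. The words "TOR complex" were matched as whole words, which drops 22 rows such as mediator subunits.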

Additional observations from a re-analysis of the deposited data

How the results depend on the processing

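The number of autophagy genes called, 5 as reported, was 3 with the replicate block, 3 with no filter on low counts, 3 with limma on log2(FPKM + 0.1) and 8 within replicates 2 and 3 only; leaving out 1 library gave 3 to 7. The number of all genes called stayed within 1.5 times of 6616, from 5518 without salt replicate 3 to 8029 within replicates 2 and 3 only. That of partner genes stayed within 1.5 times of 14 under each alternative. With summed Trinity clusters the log2 fold change turned to 0.14 for ATG5, 0.33 for AMBRA1, 1.704 for ATG18b and 0.44 for ATG18a, and was -1.41 for ATG6, 0.71 for ATG13 and -0.63 for ATG2; the other rows of these clusters carry other names or none. With library totals and no TMM it turned to 0.048 for ATG18a, 0.088 for ATG6, 0.012 for RAPTOR and 0.13 for the pump subunit a3, which also had 0.15 within replicates 2 and 3 and -0.19 to 0.15 when 1 library was left out. The second Atg14 row had -0.033 to 0.30 when 1 library was left out. The cause was not tested. ATG3-2 and ATG18b had the fewest counts among the 12 genes, 90 to 341 and 115 to 174 per library.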
